A study of Mus musculus with 8 samples.

Results

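The comparison described here set all effector T helper (Th) cells of the series, as one side, against naive CD4 T cells. Its members were all 8 of the 8 libraries in the series, 6 from effector cells (2 each of Th1, Th2 and Th17) and 2 from naive cells, and its main items were the 830 genes, of 11198 tested, that were lower in every effector subset. All 8 libraries came from DO11.10 Tg mice, which carry a transgenic TCR for an ovalbumin (OVA) peptide and were 6 to 12 weeks old according to the methods. The naive cells were splenic CD4 T cells sorted directly by their naive surface phenotype, which included low CD44. The effector cells had been cultured from naive cells for 6 days with 0.3 μM OVA peptide and irradiated BALB/c splenocytes that had been depleted of T cells. Th1 cultures contained IL-2 (30 U/ml), IL-12 (100 U/ml) and anti-IL-4 Ab (1 μg/ml), and Th2 cultures contained IL-2 (30 U/ml), IL-4 (100 U/ml) and anti-IFNγ Ab (10 μg/ml). Th17 cultures contained IL-6, IL-1β and IL-23 (10 ng/ml each) and both antibodies (10 μg/ml each). Antigen, time in culture and the presence of feeder cells were common to all effector libraries and absent from both naive libraries, so these cannot be told apart.

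A naive CD4 T cell is a small resting cell that recirculates between blood and lymphoid organs. It is held in this state by transcription factors of the TCF, FOXO and KLF families and by proteins that limit growth, and it enters lymph nodes with the help of CCR7 and leaves them through the sphingosine phosphate receptor S1PR1. After antigen recognition it grows, divides and switches to aerobic glycolysis, whichever Th subset it becomes.

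The values are FPKM, sequenced fragments scaled by transcript length and by the size of the library. The FPKM confidence intervals imply 14463466 and 14475884 fragments in the naive libraries and 16715742 to 21058286 in the effector libraries. The naive side was thus the shallower one, and the estimates cover counting error only. Across genes, which are not independent replicates, Pearson's r of log2(FPKM + 1) was 0.953 to 0.960 between replicates, 0.860 to 0.913 between effector subsets and 0.664 to 0.747 for pairs of naive with effector libraries. The labels do not say whether replicates came from separate mice or cultures, so the p-values measure the spread between these libraries, which may be technical.

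The markers of the comparison were examined first. *Ccr7*, the receptor for lymph node entry, had FPKM values of 327 and 310.4 in naive cells against 39.8 and 37.8 in Th1 cells, 72.6 and 70.5 in Th2 cells and 150.5 and 160.3 in Th17 cells. All effector libraries lay below both naive libraries. *Il2ra*, the IL-2 receptor alpha chain induced by activation, had 4.55 and 5.67 in naive cells against 611 and 604 in Th1 cells, 787 and 644 in Th2 cells and 865 and 821 in Th17 cells, with no overlap between the sides. *Cd44* had 14.7 and 15.3 in naive cells against 60.4 and 64.8 in Th1 cells, 18 and 21.7 in Th2 cells and 67.9 and 68.1 in Th17 cells. It was part of the naive sort, so that its low naive level is no finding, and its difference from naive in Th2 cells was 0.38 on the log2(FPKM + 1) scale against 1.99 in Th1 and 2.11 in Th17. The T cell genes *Cd4*, *Cd3e* and *Cd3g* were present in every library, with a lowest FPKM of 187, 196 and 293, and the labelled cell type therefore had its markers on both sides.

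Every gene was fitted with limma on log2(FPKM + 1), with 4 group means, and the pooled difference is the mean of the Th1, Th2 and Th17 means minus the naive mean. Differences on this scale understate the change of genes with a low FPKM. At an adjusted p-value (Benjamini-Hochberg) under 0.05 and at least a 2-fold difference, 1371 genes were lower in pooled effector cells (12.2% of those tested) and 2149 were higher (19.2%). Taken one subset at a time, Th1 cells had 11.9% of the genes tested lower and 17.9% higher, Th2 cells 16.2% lower and 18.1% higher, and Th17 cells 11.3% lower and 20.3% higher. Regardless of any test, all effector values were below both naive values for 31.1% of the genes and above them for 30.5%. A stricter rule required a 2-fold difference past the threshold in each of the 3 subsets, with every effector library beyond both naive libraries. It was met by 855 lower genes (7.64% of those tested) and by 1390 higher genes (12.4%). Outside receptor families 830 and 1350 remained, which are called lower or higher in all 3 subsets below. For every such gene the lack of overlap between effector and naive libraries is part of the rule, also where it is stated below. The 3 comparisons share the same 2 naive libraries, so they are not independent of each other. Of the genes changed in all 3 subsets, 38.1% were lower, against 49.8% after quantile normalization (1019 lower and 1027 higher), and in the pooled count the share moved from 38.9% to 49.8%. The direction balance therefore depended on the scaling, whereas 804 of the 830 lower genes and 1006 of the 1350 higher genes were counted under both.

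**Figure D1:**
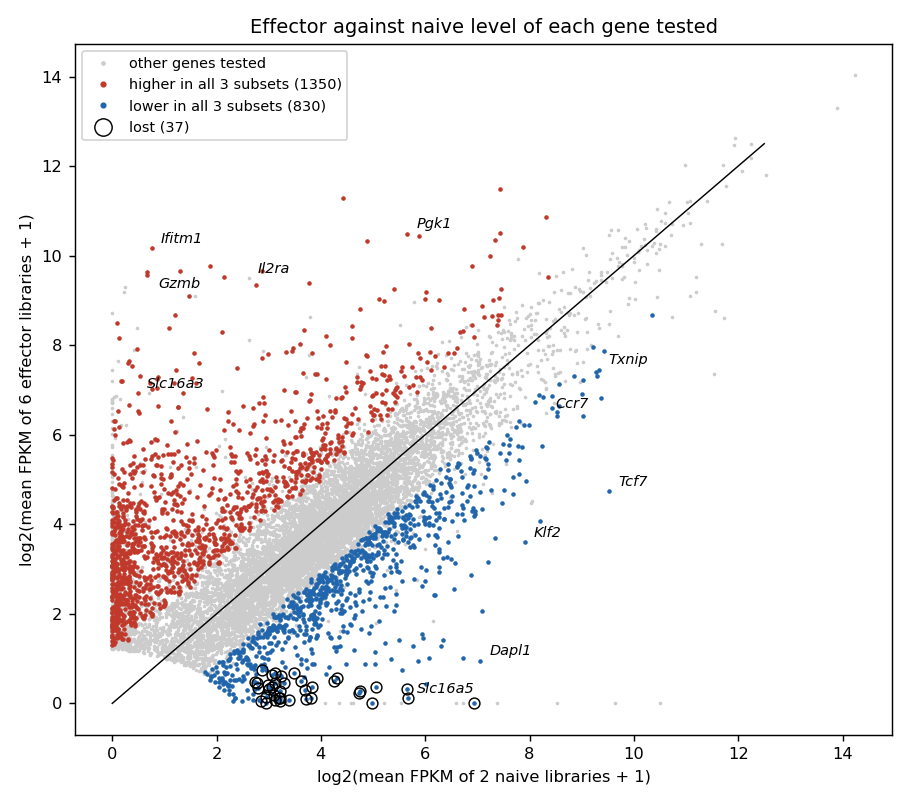
Level of the 11198 genes tested in effector cells (vertical axis, log2 of the mean FPKM of 6 libraries plus 1) against naive cells (horizontal axis, log2 of the mean FPKM of 2 libraries plus 1), with the diagonal marking equal levels. The 830 genes lower in all 3 subsets (blue) lie below the diagonal and the 1350 higher genes (red) above it, and open circles mark the 37 genes lost from the naive state.

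Of the 830 genes lower in all 3 subsets, the median pooled difference was -1.68 on the log2 scale, against -0.012 over all genes tested. For 279 of them the fall was at least 4-fold, for 85 at least 8-fold and for 29 at least 16-fold. Their summed FPKM was 39890 and 40928 in the naive libraries and 8571 to 12151 in the effector libraries, where the rule requires it to be lower. In bulk RNA, fewer cells that express a gene and less RNA per cell cannot be told apart, which applies to every fall described here.

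Ranked by the smallest of its 3 falls, the first protein-coding gene was *Dapl1* (chr2:59484653-59505020 of mm10). Its FPKM was 135 and 129 in naive cells against 0.265 and 0.463 in Th1 cells, 0.356 and 1.17 in Th2 cells and 1.43 and 1.91 in Th17 cells, and its pooled difference was -6.18 (SE 0.18, adjusted p = 2.47e-07). Both naive libraries lay far above all effector libraries. The next were *Slc16a5*, a member of the monocarboxylate transporter family (chr11:115462473-115474398), and *Pdlim4*, a PDZ and LIM domain protein of the actin cytoskeleton. *Slc16a5* had 52.8 and 46.5 in naive cells against 0.0577 and 0.0486 in Th1 cells, 0.0232 and 0.271 in Th2 cells and 0.0661 and 0.0294 in Th17 cells, and its naive mean was 600 times its effector mean. *Pdlim4* had 118 and 90.5 in naive and 0.244 to 1.93 in effector libraries. *Atp1b1*, the beta 1 subunit of the sodium-potassium pump, had 73.4 and 54.4 in naive and 0.0925 to 1.06 in effector libraries.

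*Dtx1*, an E3 ubiquitin ligase of the Notch pathway (chr5:120680264-120711669), had an FPKM of 41.8 and 56.9 in naive cells against 0.0926 and 0.117 in Th1 cells, 0.168 and 0.369 in Th2 cells and 0.353 and 0.437 in Th17 cells. As the rule requires, the sides did not overlap, and its pooled difference was -5.32 (SE 0.13, adjusted p = 1.42e-07). *Fam101b*, whose protein binds filamin, fell from 81.5 and 73.5 in naive libraries to between 0.712 and 2.07 in effector libraries, and *Sidt1*, a transmembrane protein, from 53.7 and 60.6 to between 0.676 and 1.43. Of the other ranked genes, *Arl5c*, an ARF-like GTPase, fell from 147 and 124 to between 1.74 and 5.72 and *Scml4*, a Polycomb-related protein, from 58.7 and 62.5 to between 1.12 and 3.22. *Vipr1*, the receptor for vasoactive intestinal peptide, fell from 41.4 and 50.05 to between 0.209 and 1.34; its symbol is outside the receptor families that were set aside. The uncharacterized *2610019F03Rik* fell from 84.3 and 75.7 to between 0.802 and 2.40 and the pseudogene *Bambi-ps1* from 44.4 and 34.4 to between 0.361 and 1.31. The 20 genes of this ranking also included *Samd9l*, *Rtp4*, *Pydc3* and *Gm14446*, described with the interferon-stimulated genes, and *Klf2*, described with the transcription factors.

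The ranking also held 3 records of small RNAs, whose FPKM rests on very few fragments. *Mir568*, the first of all ranked genes, had an FPKM of 192 and 50.8 in naive libraries and was listed at 0 in all 6 effector libraries, but its naive values correspond to 3 implied fragments in the 2 libraries together. *Mir20a* (44.6 and 16.6 in naive, listed at 0 in effector libraries) rested on 3 implied naive fragments and *Snord88c* (88.7 and 144 in naive and 0 to 37.6 in effector libraries) on 4. Such short features reach a high FPKM from single fragments. Among the 830 genes, 7 were small RNA records.

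A gene was called lost when its FPKM was at least 5 in both naive libraries and under 1 in every effector library, a rule on levels without a test. This held for 37 of the 7443 genes outside receptor families with that naive level (0.497%), and all 37 were also lower in all 3 subsets. These levels already force a fall of over 2-fold without overlap, so only the test could have kept any of them out. In 21 of them no effector library reached an FPKM of 0.5. Their naive means ranged from 5.67 to 122, and the highest effector value of any of them was 0.984. Without naive replicate 1 the rule was met by 60 genes, and without any one of the other libraries by 38 to 44. Leaving out a library can only relax this rule, so these 37 had to be included each time.

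The lost genes with the highest naive means were, after *Mir568*, *Slc16a5*, *Dtx1*, *Pydc3*, *Mir20a*, *Gm14446* and *Rtp4*, the 7 with a naive mean of at least 20. Next came 2 genes better known from neurons. *Nsg2*, an endosomal protein, had 18.5 and 19.2 in naive and 0.137 to 0.797 in effector libraries, and *Pacsin1*, an endocytic adaptor, had 15.3 and 20.99 in naive and 0.2 to 0.732 in effector cells. *Fam26f*, a calcium homeostasis modulator family gene, had 12.8 and 13.7 in naive and 0.0373 to 0.467 in effector cells, and *Rtn4rl1*, a Nogo receptor homolog, had 11.1 and 11.6 in naive and 0.0838 to 0.984 in effector cells.

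Several lost genes encode transporters and enzymes. *Slc14a1*, a urea transporter, had 9.62 and 10.8 in naive and 0.241 to 0.878 in effector libraries. *St8sia6*, a sialyltransferase, had 7.93 and 9.70 in naive and 0.0694 to 0.82 in effector cells, and *Car15*, a carbonic anhydrase, had 8.10 and 8.76 in naive and 0.332 to 0.797 in effector cells. Both sides were apart in each of these genes, as the rule for lost genes requires. *Ampd1*, an AMP deaminase, had 8.27 and 7.08 in naive and 0.029 to 0.0969 in effector cells, *Adh1*, an alcohol dehydrogenase, had 8.85 and 7.49 in naive and 0 to 0.275 in effector cells, and *Rdh5*, a retinol dehydrogenase, had 5.38 and 7.23 in naive and 0.51 to 0.911 in effector cells. The channel genes *Kcnh3* (6.66 and 5.84 in naive and 0 to 0.0581 in effector cells) and *Gabrr2* (6.59 and 6.82 in naive and 0.0201 to 0.231 in effector cells) and the Ras GTPase-activating gene *Rasal1* (5.78 and 8.11 in naive and 0.137 to 0.607 in effector cells) were also among the lost genes. The uncharacterized *E130215H24Rik* had 8.38 and 8.15 in naive and 0.17 to 0.315 in effector cells. The remaining lost genes were *C1qa*, *C1qb*, *C1qc* and *Hba-a1*, *Oas2*, *Ifit1*, *Ifit3* and *Ddx60*, which are taken up below, and *Xkrx*, *Rgmb*, *Zfp831*, *D930028M14Rik*, *Tmie*, *Ovgp1*, *Rnf32* and *Hs3st3b1*, with naive means of 5.67 to 8.23.

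**Figure D2:**
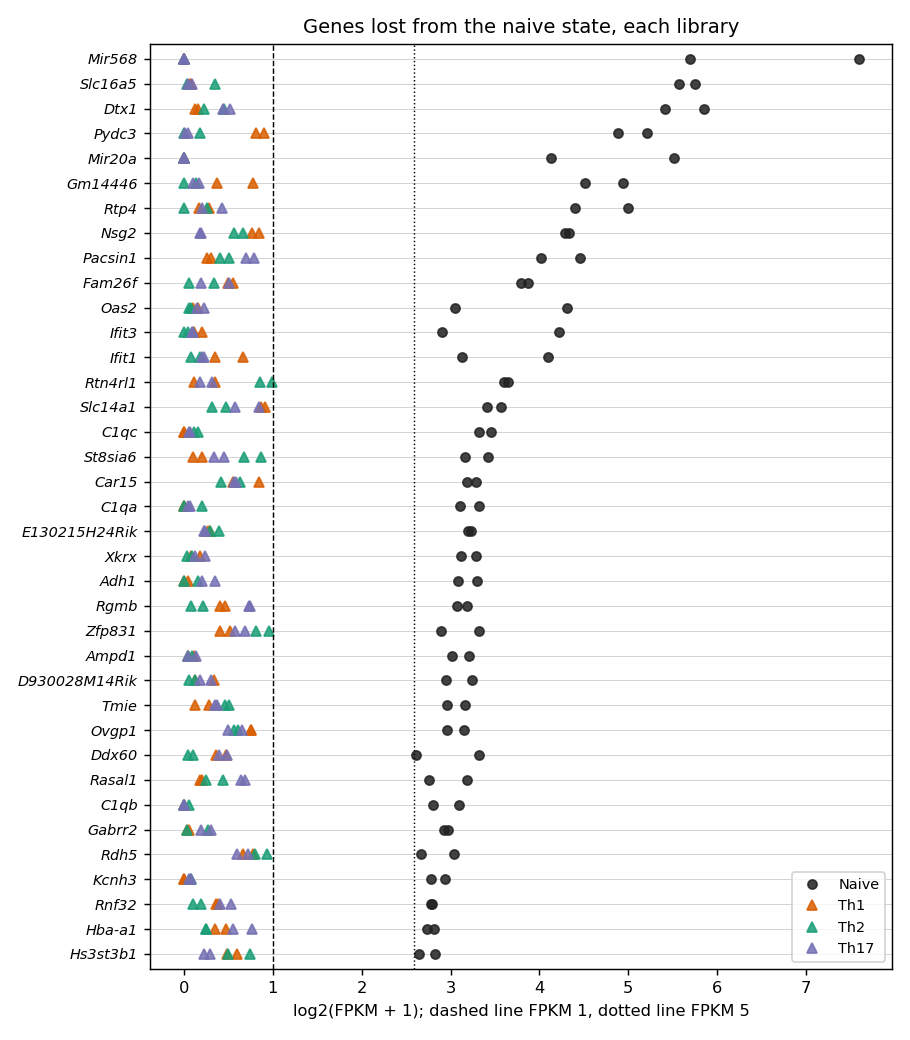
The 37 lost genes, ordered by naive mean, with log2(FPKM + 1) on the horizontal axis and 1 symbol per library (circles naive, triangles effector, colored by subset). All effector symbols lie left of the dashed line (FPKM 1) and all naive symbols right of the dotted line (FPKM 5), and the 2 naive symbols lie furthest apart for *Mir568*.

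The limits of both rules cut through a continuum. Just inside the limit for lost genes were *Rtn4rl1*, *Zfp831* and *Rdh5*, with highest effector values of 0.984, 0.944 and 0.911. Just outside it were *Adamts14*, *Ggt5* and *Otud1*, with 1.02, 1.03 and 1.03. At the 2-fold limit, *Setdb2*, *Fam193b* and *Prdm15* were just inside with pooled differences of -1.25, -1.04 and -1.15, and *Gpsm3*, *Trim14* and *Nxf1* just outside with -1.18, -1.14 and -1.11, since their smallest fall in a single subset was under 2-fold.

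Among 18 transcription factor genes of the naive state, 17 were tested, and 7 were lower and 1 was higher in all 3 subsets. Over all genes tested, receptor genes included, 7.64% were lower and 12.4% higher by this rule. The median pooled difference of the 17 was -1.06, against -0.012 over all genes tested. *Tcf7*, which encodes TCF1, had the largest fall, with an FPKM of 735 and 741 in naive cells against 5.79 and 7.33 in Th1 cells, 8.08 and 14.1 in Th2 cells and 51.1 and 67.3 in Th17 cells and a pooled difference of -5.41 (SE 0.21, adjusted p = 7.59e-07). The Th17 libraries kept a level above those of Th1 and Th2 and far below naive (adjusted F-test p among subsets = 0.000259). *Klf2*, the factor that sustains *S1pr1* expression, had 257 and 221 in naive cells against 12.3 and 15.9 in Th1 cells, 8.43 and 13.5 in Th2 cells and 6.35 and 10.4 in Th17 cells. *Klf3*, another KLF family factor, had 62.1 and 80.9 in naive and 1.31 to 6.61 in effector libraries. *Foxp1*, a forkhead factor of T cell quiescence, had 37.9 and 36.4 in naive and 0.88 to 6.77 in effector cells. No effector library overlapped the naive libraries in any of these 4 genes, which the rule requires.

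The other 3 factors lower in all subsets fell less. *Bcl11b*, a T lineage factor, had a pooled difference of -1.88 (SE 0.094, adjusted p = 2.86e-06), *Lef1*, a close relative of *Tcf7*, -1.63 (SE 0.31, adjusted p = 0.00245), and *Ikzf1*, which encodes Ikaros, -1.47 (SE 0.082, adjusted p = 4.96e-06). *Foxo1*, the factor that drives *Klf2* and *Il7r*, fell by more than 2-fold in Th1 and Th17 but had a difference of -0.70 in Th2 (FPKM 41.4 and 43.3 against 68.6 and 70.8 in naive). *Ets1*, an ETS family factor, and *Bach2*, which restrains effector differentiation, had pooled differences of -0.98 and -0.84. By subset, *Ets1* had -1.13 in Th1, -0.68 in Th2 and -1.11 in Th17. *Bach2* had -1.21 in Th1, -1.01 in Th2 and -0.32 in Th17, the last without passing the test (limma, adjusted p = 0.121). The chromatin organizer *Satb1* had a difference of 0.40. *Myb* was the factor higher in all 3 subsets, with 6.06 and 6.54 in naive and 23.1 to 65.0 in effector libraries.

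The promoters of 3 genes that fell and of 1 that rose are shown with the short words they hold that known families of transcription factors can bind. The sequences are from RefSeq (GRCm38.p6), 250 bases before to 50 bases after the annotated start. Capitals mark exact matches on either strand to the FOXO word GTAAACA, the TCF/LEF word CTTTGAT, the KLF word CACCC, the ETS word CCGGAAG, the RUNX word TGTGGTT, the E2F word GCGGGAA and the CCAAT box CCAAT, none of which contains another.
Dapl1, chr2:59484403-59484702, plus strand: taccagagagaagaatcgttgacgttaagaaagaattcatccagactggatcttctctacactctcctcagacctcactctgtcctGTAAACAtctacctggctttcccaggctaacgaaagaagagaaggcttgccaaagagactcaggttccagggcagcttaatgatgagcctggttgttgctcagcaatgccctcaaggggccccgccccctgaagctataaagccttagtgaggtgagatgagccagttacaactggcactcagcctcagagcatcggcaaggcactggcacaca
Tcf7, chr11:52282546-52282845, minus strand: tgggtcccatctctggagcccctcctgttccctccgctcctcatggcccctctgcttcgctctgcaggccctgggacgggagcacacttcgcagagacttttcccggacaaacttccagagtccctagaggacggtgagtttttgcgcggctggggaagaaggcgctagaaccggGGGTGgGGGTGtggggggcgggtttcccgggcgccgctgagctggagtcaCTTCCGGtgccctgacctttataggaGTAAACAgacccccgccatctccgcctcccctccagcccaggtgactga
Dtx1, chr5:120711620-120711919, minus strand: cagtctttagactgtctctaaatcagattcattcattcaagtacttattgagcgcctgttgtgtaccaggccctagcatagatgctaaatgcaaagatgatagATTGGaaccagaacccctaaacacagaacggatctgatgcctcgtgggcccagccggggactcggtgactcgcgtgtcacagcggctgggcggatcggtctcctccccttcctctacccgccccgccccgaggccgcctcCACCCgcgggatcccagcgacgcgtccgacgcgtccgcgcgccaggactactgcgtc
Top2a, chr11:99024140-99024439, minus strand: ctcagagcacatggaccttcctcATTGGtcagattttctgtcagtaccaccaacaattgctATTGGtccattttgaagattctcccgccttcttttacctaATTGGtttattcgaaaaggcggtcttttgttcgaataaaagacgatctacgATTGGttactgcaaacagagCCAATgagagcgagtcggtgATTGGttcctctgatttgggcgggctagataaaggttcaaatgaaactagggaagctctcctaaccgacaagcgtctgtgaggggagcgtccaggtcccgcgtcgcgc
The *Dapl1* promoter held 1 FOXO word, and the *Tcf7* promoter held 1 FOXO word, 2 KLF words and 1 ETS word. The *Dtx1* promoter held 1 KLF word and 1 CCAAT box, and that of *Top2a*, a topoisomerase gene of dividing cells that rose, held 6 CCAAT boxes. The promoters shown are examples and no sample of the genes that fell. Those of *Klf2*, *Samd9l*, *Irf7*, *Ifit1* and *Ifit3*, which also fell, are not shown, and none of them held a FOXO word. Over the 7701 tested genes with a promoter in the table, 2.48% held the FOXO word, 2.35% the TCF/LEF word, 62.1% the KLF word, 20.5% the ETS word, 3.75% the RUNX word, 9.02% the E2F word and 39.2% a CCAAT box. A match describes these letters and no binding. The promoters of only 66.4% of the 830 lower genes were matched, under the 80% set for such a check, so a comparison of word shares between gene lists was void.

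The quiescence and growth brakes are proteins that limit cell growth, translation or division. Of 23 genes, all tested, 9 were lower and 1 was higher in all 3 subsets (against 7.64% and 12.4% of all genes tested), with a median pooled difference of -1.12. *Tsc22d3*, the glucocorticoid-induced gene that encodes GILZ, had 313 and 276 in naive cells against 14.5 and 14.1 in Th1 cells, 19.2 and 23.9 in Th2 cells and 11.5 and 11.3 in Th17 cells and a pooled difference of -4.18 (SE 0.10, adjusted p = 1.21e-07). *Slfn1* and *Slfn2*, Schlafen genes of resting T cells, both fell, *Slfn1* from 230.5 and 255 to between 11.2 and 44.8 and *Slfn2* from 306 and 296 to between 32.6 and 73.4. The antiproliferative genes *Btg2* and *Btg1* had pooled differences of -2.78 and -1.72, and *Tob1*, of the same family, had -1.35. *Pdcd4*, an inhibitor of translation, *Pik3ip1*, an inhibitor of PI3 kinase, and *Txnip*, an inhibitor of glucose uptake, had -1.99, -1.99 and -1.95.

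Other brakes did not meet the rule. *Cdkn1b*, which encodes p27, had 76.6 and 65.8 in naive cells against 22.3 and 19.3 in Th1 cells, 45.8 and 72.4 in Th2 cells and 28.8 and 26.7 in Th17 cells, so that one Th2 library lay between the naive ones. The mTORC1 inhibitor *Ddit4* and the antiproliferative *Tob2* had differences of 0.14 (SE 0.15, adjusted p = 0.415) and 0.018 (SE 0.069, adjusted p = 0.827). By subset, *Ddit4* had -0.27 in Th1, 0.61 in Th2 and 0.083 in Th17. *Cdkn2c*, which encodes the cell cycle inhibitor p18, was higher in all 3 subsets, with 2.08 and 1.65 in naive and 10.0 to 28.3 in effector libraries.

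**Figure D3:**
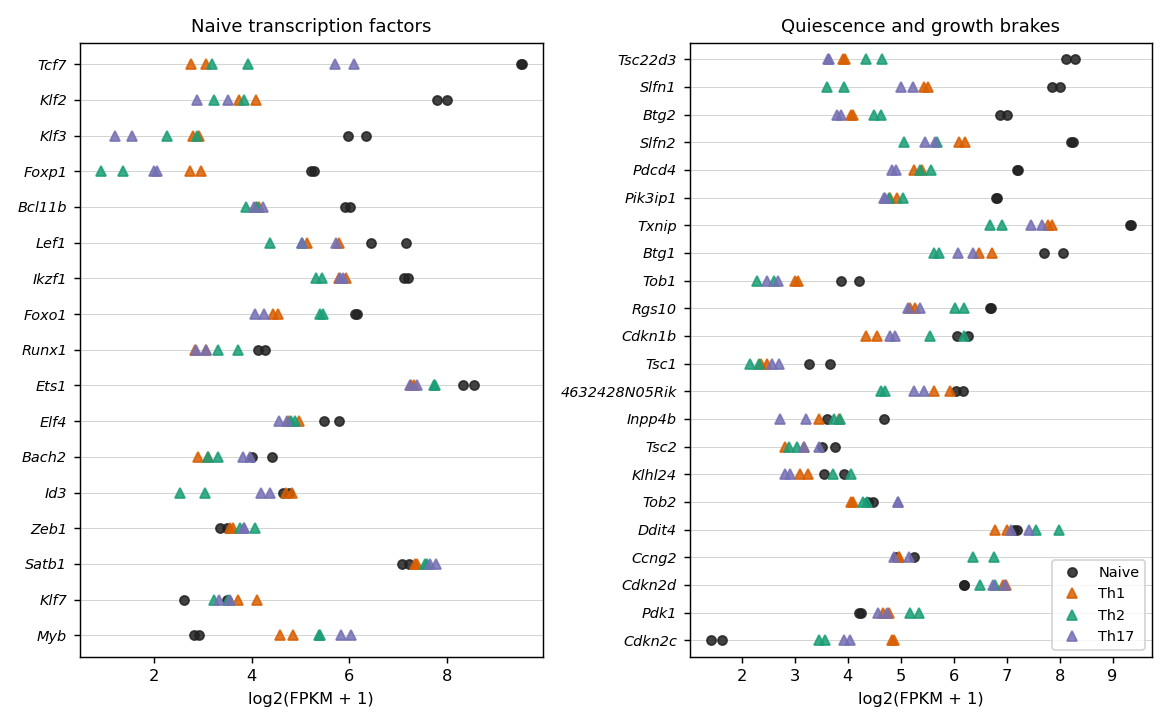
Log2(FPKM + 1) of the 17 tested naive transcription factor genes (left) and 22 quiescence and growth brakes (right) in each library, with circles for the 2 naive libraries and triangles for the effector libraries, ordered by pooled difference. From *Tcf7* to *Ikzf1* and from *Tsc22d3* to *Tob1* all triangles lie to the left of both circles, and *Myb* and *Cdkn2c* show the opposite order.

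Of 30 naive surface and adhesion genes, receptor genes included, 17 were lower and 2 were higher in all 3 subsets (median pooled difference -2.26). The shares over all genes tested were 7.64% and 12.4%. After *Dapl1*, the largest falls were those of *Cd7*, an immunoglobulin superfamily protein, and *Ms4a4b*, a tetraspanning membrane protein. *Cd7* had 50.6 and 55.6 in naive cells against 2.18 and 3.72 in Th1 cells, 0.313 and 0.595 in Th2 cells and 1.04 and 0.743 in Th17 cells, all effector values lying below both naive values. *Ms4a4b* had 579 and 459 in naive cells against 209 and 213 in Th1 cells, 0.544 and 3.56 in Th2 cells and 36.9 and 46.3 in Th17 cells, so its level was higher in Th1 than in Th2 (adjusted p = 7.35e-05, limma). *Actn1*, an actin crosslinker, fell from 148 and 176 to between 8.47 and 14.6 and *Cd27*, a TNF receptor family costimulator, from 270.2 and 252 to between 16.1 and 27.2. *Ccr9*, the gut-homing receptor, had 9.27 and 8.81 in naive libraries and at most 0.0473 in an effector library. *S1pr1*, the egress receptor, had 192 and 182 in naive cells against 32.0 and 26.8 in Th1 cells, 11.4 and 11.2 in Th2 cells and 85.8 and 69.1 in Th17 cells.

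Not every gene of this group fell. *Il7r*, the survival receptor, had a pooled difference of 0.077 (SE 0.12, adjusted p = 0.57), with 187 and 165 in Th1 against 90.6 and 76.5 in naive. *Igfbp4* had 0.18 (SE 0.12, adjusted p = 0.227), with 497 and 589 in Th17 against 182 and 213 in naive. *Cd2*, an adhesion molecule, had 0.66 (SE 0.08, adjusted p = 0.000246), which is under 2-fold. The pair higher in all 3 subsets was *Ly6c1* and *Ly6c2*. *Ly6c1* rose from 0.61 and 2.90 to between 276 and 715 and *Ly6c2* from 0.403 and 2.28 to between 81.3 and 281. These are neighboring, similar genes on chromosome 15, between which reads may be divided uncertainly.

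Part of the antigen receptor signaling genes fell. Of 29 genes, 6 were lower and 2 were higher in all 3 subsets, against 7.64% and 12.4% of all genes tested. In the pooled comparison 22 passed the test toward lower levels at any size, against 36.8% of all genes tested in that direction. *Txk*, a Tec family kinase, had the largest fall, with 79.6 and 79.9 in naive cells against 16.1 and 17.0 in Th1 cells, 0.833 and 1.19 in Th2 cells and 7.45 and 8.20 in Th17 cells. *Dgka*, which ends diacylglycerol signals, fell from 607 and 720.2 to between 76.2 and 148. *Lat*, a membrane adaptor of the receptor, and *Prkcq*, a kinase that leads to NF-κB, had pooled differences of -1.89 and -1.75, and *Cd247*, the zeta chain, had -1.32. *Zap70* and *Cblb* had 0.082 (SE 0.10, adjusted p = 0.498) and -0.00053 (SE 0.13, adjusted p = 0.997). The pooled value of *Cblb* averages opposite changes, 0.55 in Th1, -1.15 in Th2 and 0.60 in Th17. *Malt1*, a paracaspase of the NF-κB pathway, had a pooled difference of 2.46 (SE 0.093, adjusted p = 7.32e-07), and *Themis*, an adaptor of thymocyte selection, rose from 31.1 and 30.6 to between 65.0 and 115. The number lower in all 3 subsets was 4 to 9 over 18 alternative settings.

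The GIMAP genes encode GTPases of lymphocyte survival and lie together on chromosome 6. Of 8 members, 2 were lower in all 3 subsets, against 7.64% of all genes tested. These were *Gimap6* (535 and 489 in naive, 92.8 to 153 in effector libraries) and *Gimap8* (-1.74). The estimate of *Gimap8* was not flagged OK in every library. The median of the 8 members was -0.91. *Gimap7* had 0.24 (SE 0.086, adjusted p = 0.0361), from 0.68 in Th1, 0.55 in Th2 and -0.50 in Th17. The other 7 passed the test toward lower levels at any size, against 36.8% of all genes tested.

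Early response genes are induced within minutes of a stimulus, and several were higher in the naive libraries. Of 14 tested, 5 were lower in all 3 subsets and 1 was higher (against 7.64% and 12.4% of all genes tested), with a median pooled difference of -1.08. *Ppp1r15a*, a stress-induced phosphatase subunit, had 132 and 114 in naive cells against 12.1 and 15.6 in Th1 cells, 19.4 and 26.9 in Th2 cells and 14.5 and 18.6 in Th17 cells. *Fos* had 40.1 and 29.6 in naive and 3.55 to 12.9 in effector libraries, and *Zfp36* and *Zfp36l2*, which destabilize mRNAs, and *Dusp1*, which inactivates MAP kinases, had pooled differences of -2.09, -1.99 and -1.93. *Jund* had -0.32 (SE 0.15, adjusted p = 0.096). *Atf3* was the opposite case, with 0.123 and 0.0495 in naive and 10.6 to 26.4 in effector libraries. Naive cells were sorted and effector cells were taken from culture, and the part of cell handling in these levels was not tested.

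A list of 43 interferon-stimulated genes was added after the ranked genes had been seen, so its counts are a description. Of 39 tested, 19 were lower and 4 were higher in all 3 subsets (against 7.64% and 12.4% of all genes tested), and the median pooled difference was -1.78. *Samd9l*, an antiviral restriction factor, had 63.9 and 67.8 in naive cells against 1.3 and 1.03 in Th1 cells, 0.153 and 0.473 in Th2 cells and 1.603 and 1.47 in Th17 cells. *Rtp4*, an interferon-induced receptor transporter protein gene, had 20.1 and 30.9 in naive and 0 to 0.34 in effector libraries. *Irf7*, the factor that amplifies type I interferon, had 52.5 and 89.5 in naive cells against 6.29 and 7.83 in Th1 cells, 2.60 and 2.32 in Th2 cells and 3.89 and 3.42 in Th17 cells, all effector values lying below both naive values. *Isg15*, a ubiquitin-like modifier, had 23.6 and 40.4 in naive and 1.26 to 6.56 in effector cells.

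The falls included sensors and effectors of antiviral defense down to near absence. *Oas2*, an oligoadenylate synthetase, had 7.31 and 18.9 in naive and 0.0358 to 0.17 in effector libraries, *Ifit3* had 6.51 and 17.6 in naive and 0 to 0.152 in effector cells, *Ifit1* had 7.77 and 16.1 in naive and 0.0538 to 0.581 in effector cells, and the helicase gene *Ddx60* had 5.14 and 9.01 in naive and 0.0339 to 0.401 in effector cells. The naive libraries differed from each other here, since 38 of the 39 genes were higher in naive replicate 2, with a median ratio of 1.54 against 1.01 over all genes tested. Without naive replicate 1 the count lower in all 3 subsets was 21, and without naive replicate 2 it was 18. With a mean FPKM of at least 5 required, 11 were counted, since fewer of the genes were then tested. The 4 higher genes were *Ifitm1*, *Ifitm2* and *Ifitm3*, membrane proteins that block viral entry, and *Eif2ak2*, which encodes the RNA-activated kinase PKR (1.55 and 2.67 in naive and 4.90 to 8.30 in effector libraries). In 14 of the 19 lower genes both Th2 libraries lay below all Th1 and Th17 libraries, which was so for 41.7% of the 830 lower genes and 37.1% of all genes tested.

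Some genes lower in all 3 subsets were neighbors. Of the 830, 249 (30.0%) had at least 1 of the others as the adjacent tested gene on the chromosome, overlapping genes included, and the 830 made up 7.41% of the genes tested. A gene can have an adjacent member on either side, so the first share would exceed the second even without clustering. They are not like measures. The longest stretch was on chromosome 19 (chr19:34492316-34650009), with *Lipa*, *Ifit2*, *Ifit3*, *Gm14446*, *I830012O16Rik* and *Ifit1*. The next was on chromosome 1 (chr1:173673680-173942492), with *Pydc3*, *Ifi204*, *Mndal*, *Mnda* and *Ifi203*, genes of the interferon-inducible family that senses nucleic acids. Another, on chromosome 7 (chr7:104244457-104353358), held the TRIM genes *Trim34a*, *Trim12a*, *Trim34b* and *Trim12c*. These are families of similar copies, so that reads may be divided uncertainly among their members. *Pydc3* had 28.6 and 35.9 in naive and 0 to 0.864 in effector libraries, and *Gm14446* had 21.9 and 29.8 in naive and 0 to 0.719 in effector cells.

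Marker genes of other cell types were among those higher in the naive libraries. The 3 subunits of complement C1q, which are products of macrophages, were among the lost genes. *C1qc* had 9.97 and 9.03 in naive and 0 to 0.116 in effector libraries, *C1qa* had 9.01 and 7.64 in naive and 0 to 0.151 in effector cells, and *C1qb* had 7.54 and 5.98 in naive and 0 to 0.0382 in effector cells. In a list of 16 splenic macrophage genes, added after the data were seen, 10 were tested, 7 were lower and 1 (*Axl*) was higher in all 3 subsets, and 4 were under an FPKM of 1 in every library. The shares lower and higher over all genes tested were 7.64% and 12.4%. The summed FPKM of that list was 72.4 to 82.9 in naive and 39.9 to 61.1 in effector libraries. These sums include *Axl*, which had 2.85 and 2.55 in naive and 10.4 to 41.8 in effector libraries. Its estimate was not flagged OK in every library. Of the genes that define red pulp macrophages, *Cd5l* had 1.52 and 1.96 in naive and at most 0.0226 in effector libraries, and *Spic* had 1.23 and 1.32 and at most 0.117. Among 6 tested markers of myeloid and dendritic cells, *Csf1r* alone was lower in all 3 subsets. Of these markers, *Emr1* reached 4.63 and 5.88 in Th2 cells from naive values of 0.89 and 0.938. Its level was at most 0.613 in any Th1 or Th17 library. *Cd14* rose, with a pooled difference of 1.21 but only 0.217 for Th2 alone.

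Among the other marker lists, *Cd8b1* was lower in all 3 subsets, with 90.5 and 52.8 in naive cells against 10.7 and 8.77 in Th1 cells, 12.9 and 8.96 in Th2 cells and 12.6 and 9.81 in Th17 cells, and *Cd8a*, which was not tested for its low level, had 2.94 and 1.77 in naive and 0.0113 to 0.268 in effector cells. The erythroid *Hba-a1*, which has a near-identical copy, had 6.04 and 5.68 in naive and 0.185 to 0.7 in effector libraries. The 7 erythroid and platelet markers together summed to 7.37 to 7.87 in naive and 0.502 to 9.43 in effector libraries. Of the 2 that were tested, 1 was lower and 1 was higher in pooled effector cells by at least 2-fold. *Foxp3*, the regulatory T cell factor, had 6.68 and 12.8 in naive cells against 0.874 and 1.13 in Th1 cells, 0.423 and 0.541 in Th2 cells and 3.03 and 5.76 in Th17 cells. Summed FPKM was 7.18 to 9.43 in naive and 2.64 to 12.8 in effector libraries for 7 B cell markers, 13 to 13.5 in naive and 9.30 to 30.7 in effector libraries for 10 myeloid and dendritic markers and 78.4 to 84.0 in naive and 60.5 to 152 in effector libraries for 5 MHC class II genes. The 3 NK cell markers summed to 0.672 to 0.89 in naive and 0.0769 to 1.44 in effector libraries, and the 8 listed granulocyte precursor genes to 0.506 to 1.598 in naive and 0.538 to 9.52 in effector libraries. In replicate 1 of Th1, Th2 and Th17, the defining granulocyte gene *Mpo* had 4.89, 2.46 and 3.02, and *Elane* had 2.59, 3.71 and 3.60. In replicate 2 of these subsets *Mpo* had at most 0.106 and *Elane* was listed at 0. The part of other cell types in the falls described here was not tested.

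Genes lower in all 3 subsets differed among the subsets about as often as all genes tested. Of the 830, 421 (50.7%) passed the F-test among Th1, Th2 and Th17 at an adjusted p-value under 0.05, against 54.3% of all genes tested. With the replicate number as a block, 501 lower genes passed, and the share over all genes in that fit is not given here. The mean was lowest in Th2 for 481 genes, in Th1 for 199 and in Th17 for 150, and over all genes tested it was lowest in Th2 for 5830, in Th1 for 3534 and in Th17 for 1834. *Mndal*, *Ifi204*, *Ifi203* and *Txk* were among the 5 genes with the smallest F-test p-values. *Mndal* had 125 and 120.3 in naive cells against 49.1 and 48.3 in Th1 cells, 0.96 and 1.47 in Th2 cells and 5.94 and 5.22 in Th17 cells. Its Th1 libraries kept a substantial level and its Th2 libraries almost none, with a Th1 minus Th2 difference of 4.50 (SE 0.13, adjusted p = 2.38e-06). *Ifi204* and *Ifi203*, of the same gene family, had Th1 minus Th2 differences of 3.10 and 4.68, and *Txk* had 3.13. When the effector libraries were fitted as 1 group, without the subsets, the pooled fall of *Ifi203* no longer passed (adjusted p = 0.0541).

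The order of the subsets differed from gene to gene. *Ccr7* was highest in Th17 (150.5 and 160.3), then Th2 and Th1, whereas *S1pr1* was highest in Th17 and lowest in Th2 (85.8 and 69.1 against 11.4 and 11.2). *Foxp1* was highest in Th1 (5.69 and 6.77) and lowest in Th2 (0.88 and 1.58). *Klf2* and *Bcl11b* had adjusted F-test p-values of 0.14 and 0.515, which do not show that their levels were equal.

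**Figure D4:**
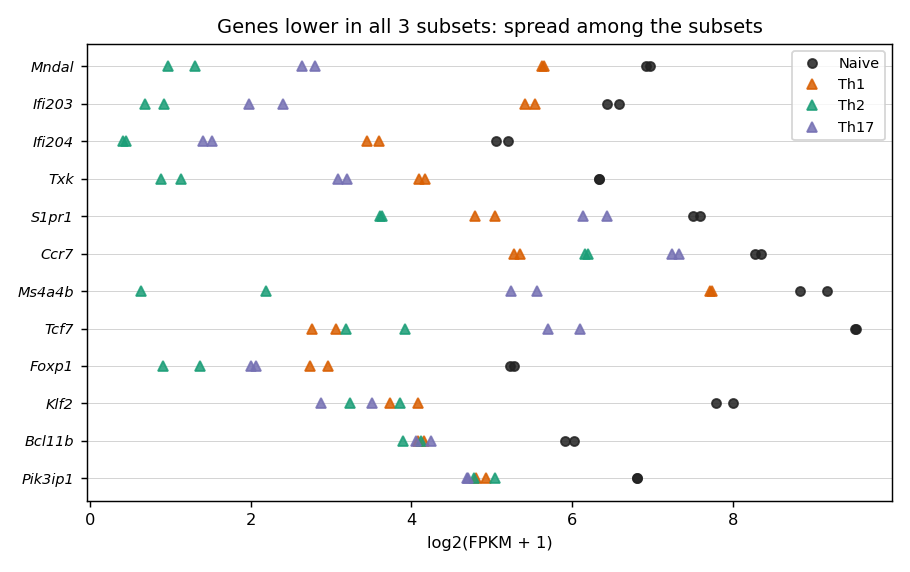
Log2(FPKM + 1) in each library (circles naive, triangles effector, colored by subset) for 4 of the 5 lower genes with the smallest F-test p-values among subsets and for 8 further lower genes chosen after their values were seen. The subsets lie far apart for *Mndal*, *Ifi203* and *Txk*, with Th2 lowest, and close together for *Bcl11b* and *Pik3ip1*.

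The genes higher in all 3 subsets, for which the rule requires 1 or above in each subset, had a median pooled difference of 2.19, and 784 of 1350 rose at least 4-fold. Of these 1350, 924 (68.4%) passed the F-test among subsets, against 54.3% of all genes tested. The first by the smallest of their 3 rises was *Ifitm1*, with 0.79 and 0.604 in naive cells against 1778 and 1844 in Th1 cells, 534 and 621 in Th2 cells and 1109 and 1016 in Th17 cells. It rested on 13 implied fragments in the naive libraries, and the difference of 9.26 (SE 0.098, adjusted p = 2.5e-08) therefore depends on the pseudocount. The metal-binding metallothionein genes followed, with *Mt1* at 0.777 and 0.389 in naive and 464 to 1256 in effector cells and *Mt2* at 0 and 0.125 in naive and 182 to 633 in effector cells. *Gzmb*, the cytotoxic protease granzyme B, had 0.252 and 0.941 in naive cells against 1606 and 1823 in Th1 cells, 532 and 351 in Th2 cells and 191 and 248 in Th17 cells, with the lowest values in Th17. *Cdkn1a*, which encodes the cell cycle inhibitor p21, had 0.102 and 0.36 in naive and 133 to 225 in effector libraries. The cytokine gene *Il24* had 0.0958 and 0.0962 in naive and 112 to 418 in effector cells, *Ifitm2* had 1.45 and 1.45 in naive and 640.3 to 1018 in effector cells, and *Ifitm3* had 2.76 and 4.10 in naive and 376 to 1286 in effector cells.

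All 18 glycolysis genes were higher in all 3 subsets, with a median pooled difference of 3.04. Over all genes tested 12.4% were higher by this rule, the share to set beside the lists that follow as well. *Slc16a3*, the lactate exporter and a family relative of the lost *Slc16a5*, had 0.38 and 0.422 in naive cells against 100.2 and 131 in Th1 cells, 125 and 145 in Th2 cells and 91.0 and 129.9 in Th17 cells. Both naive values lay below every effector value, the reverse of *Slc16a5*. *Aldoc* rose from 0.612 and 0.703 to between 124 and 163 and *Tpi1* from 12.47 and 12.8 to between 589 and 797. *Pgk1* rose from 51.2 and 47.6 to between 1299 and 1596 and *Hk2*, the inducible hexokinase, from 0.148 and 0.091 to between 24.0 and 33.4. The smallest differences were those of *Hk1* (1.89) and the lactate transporter gene *Slc16a1*, with 1.5 (SE 0.068, adjusted p = 1.79e-06). Values of *Gapdh* (27.0 and 19.1 in naive and 241 to 324 in effector cells) and *Eno1* (1.68 and 5.15 in naive and 15.3 to 32.7 in effector cells) are uncertain, because near-identical copies elsewhere in the genome can take their reads.

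Of 30 cell division genes, 27 were higher in all 3 subsets (median 3.79). *Top2a* had 1.18 and 1.93 in naive cells against 135 and 149 in Th1 cells, 103 and 106 in Th2 cells and 112 and 124 in Th17 cells, and *Mki67* had 0.577 and 1.06 in naive and 44.7 to 80.5 in effector libraries. *Aurkb*, a mitotic kinase, rose from 0.274 and 0.25 to between 45.7 and 67.8. The smallest differences were in the replication licensing genes *Cdt1* (0.74, naive FPKM 18.2 and 17.6) and *Mcm2* (0.97, naive FPKM 19.0 and 21.5).

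Of 19 cholesterol synthesis genes, 15 were higher in all 3 subsets (median 1.67). *Hmgcs1* rose from 12.1 and 11.3 to between 60.6 and 98.7. *Dhcr7* had -0.063 (SE 0.067, adjusted p = 0.422), from 0.10 in Th1, 0.12 in Th2 and -0.41 in Th17. Among 20 calcium-binding and cytoskeletal genes, 12 were higher in all 3 subsets (median 2.66), led by *Anxa2* (5.598 and 5.89 in naive and 441 to 811 in effector cells) and *Emp1* (0.468 and 0.349 in naive and 24.4 to 172 in effector cells). *S100a4* was outside the rule because of Th2, with 14.3 and 19.3 in naive cells against 227 and 309 in Th1 cells, 12.7 and 10.7 in Th2 cells and 58.7 and 75.3 in Th17 cells, and *Anxa5* had -0.10 (SE 0.095, adjusted p = 0.36). By subset, *Anxa5* had -0.16 in Th1, -0.48 in Th2 and 0.33 in Th17.

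Of 9 tested cytotoxic granule genes, 4 were higher and 1 was lower in all 3 subsets, against 12.4% and 7.64% of all genes tested. Besides *Gzmb* these were *Gzma* (5.71 and 6.90 in naive cells against 61.1 and 75.5 in Th1 cells, 2601 and 2041 in Th2 cells and 22.3 and 41.0 in Th17 cells), *Srgn*, the granule proteoglycan, and *Serpinb6b*. *Prf1*, which encodes perforin, was the lower gene, with 15.7 and 17.5 in naive and 3.39 to 6.85 in effector libraries and a pooled difference of -1.58 (SE 0.083, adjusted p = 3.57e-06).

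**Figure D5:**
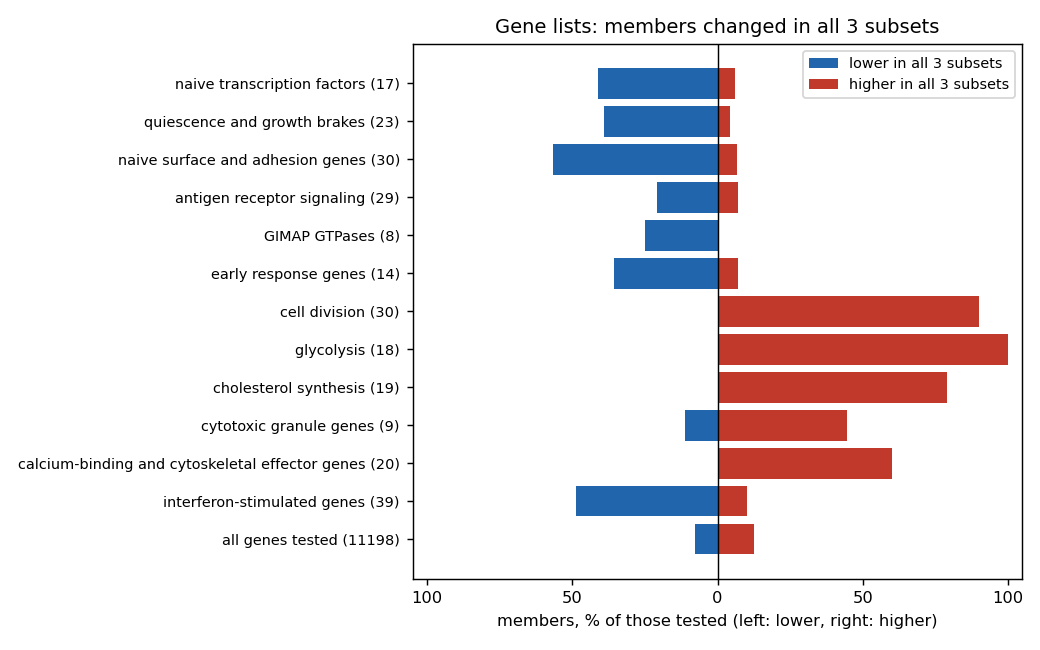
Share of the tested members of each gene list (number tested in parentheses) that were lower (blue, to the left) or higher (red, to the right) in all 3 subsets, in percent, receptor genes included, with all genes tested in the last row. The 18 glycolysis genes reach the full bar to the right, whereas the naive surface list (17 of 30) has the longest bar to the left.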

How the data were processed

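RNA was sequenced from 8 libraries, 2 per group, grouped by the sample labels. The authors aligned 50-base reads to mm10 with Bowtie 0.12.8 and TopHat 1.3.2 and computed FPKM with Cufflinks 2.0.2. The deposited FPKM of each gene came with confidence limits and a status flag. No read counts were used, and the gene annotation is not given in the sources used here. The methods name an unstranded library kit and the labels a stranded one, so overlapping genes could share reads.

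FPKM was summed over rows of the same symbol (23746 rows, 23284 genes), and genes averaging an FPKM of 1 or more over all 8 libraries were tested on log2(FPKM + 1). One limma model (3.58.1, R 4.3.3) held the 4 group means, with a mean-variance trend, two-sided tests and Benjamini-Hochberg adjustment over 11198 genes. Figures were drawn with matplotlib 3.10.9 (Python 3.11.15). The fitting code was tested on simulated data. Receptor families (433 genes) were set by symbol. Depth was estimated from the confidence intervals, taking their width as counting error. Promoters were matched by symbol with a start within 1000 bases of the end of the locus in the files.

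The members and gene lists were chosen with earlier results of these data known. Named genes were the first 20 lower and 10 higher genes by the smallest of their 3 differences, the first 20 lost genes by naive mean (the other lost genes were named after their values were seen), members of each list with the largest and smallest differences, the cell type markers, 3 genes on each side of each limit, and the 5 lower genes with the smallest F-test p-values. The lists of interferon-stimulated and macrophage genes and the neighboring genes were added after values were seen. Alternatives were another pseudocount, filter, scaling, fold threshold, level limit, design or handling of repeated symbols, a replicate block, each library left out and, added later, voom on implied fragments and the removal of genes without an OK flag in all libraries. Some genes that the rule selects are not reported here.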

Additional observations from a re-analysis of the deposited data

Results flagged for a closer look

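Of 43 named genes, 23 (53.5%) had a change from naive cells that differed among the Th1, Th2 and Th17 subsets by the F-test (limma, adjusted p = 0.00013 to 0.0457), a share close to the 54.3% of all genes tested. For each, the largest difference between a pair of subsets is given on the log2(FPKM + 1) scale. Among the lower genes, the Th1 minus Th17 difference was -0.97 for *Dapl1*, 0.40 for *Sidt1*, -0.84 for *2610019F03Rik*, 0.83 for *Pydc3* and 0.62 for *Nsg2*. The Th1 minus Th2 difference was -1.05 for *Pdlim4*, 0.65 for *Vipr1*, -0.69 for *Rtn4rl1*, 0.50 for *Slc14a1* and -0.62 for *St8sia6*. The Th17 minus Th2 difference was 0.96 for *Samd9l*, -0.74 for *Fam101b*, -1.04 for *Arl5c* and 0.81 for *Scml4*. Among the higher genes, the Th1 minus Th2 difference was 1.65 for *Ifitm1*, -1.24 for *Mt1*, -1.45 for *Mt2*, 1.3 for *Ly6c1*, -1.66 for *Il24* and 1.67 for *Ifitm3*. The Th17 minus Th2 difference was -0.51 for *Ifitm2*. The Th1 minus Th17 difference was 2.97 for *Gzmb* and 0.60 for *Cdkn1a*. The 4 other genes, *Mndal* (4.50), *Ifi204* (3.10), *Ifi203* (4.68) and *Txk* (3.13, all Th1 minus Th2), were named for their small F-test p-values, so that this test had to call them. Groups of 2 libraries are too small for an outlier to be called within a group. The cause of these differences was not tested.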

How the results depend on the processing

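All counts kept their size within 1.5 times under another pseudocount, filter, scaling, design, trend or handling of repeated symbols, with voom, and after genes without an OK flag in all libraries were dropped. With a threshold of 2 on the log2 scale, 313 genes were lower and 895 higher in pooled effectors, 176 were lower and 532 higher in all 3 subsets, and 97 of the former differed among subsets. Without a fold threshold the numbers were 4117, 4123, 2617, 2712 and 1244. With a naive level of at least 10, 11 genes were lost, and with effector levels under 0.5, 21. With each library left out, 1349 to 1455 were lower in pooled effectors, 2146 to 2181 were higher in pooled effectors, 800 to 906 were lower in all 3 subsets, 1314 to 1365 were higher in all 3 subsets, 291 to 472 lower genes differed among subsets and 38 to 60 were lost. The 60 lost genes came without naive replicate 1, and leaving out a library could only keep or raise the count of lost genes. In these fits the lone library of a group is assumed to vary like the others.

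With the replicate number as a block, 1376 were lower in pooled effectors, 2154 were higher in pooled effectors, 832 were lower in all 3 subsets, 1351 were higher in all 3 subsets and 501 lower genes differed among subsets. The 832 and 1351 included 830 and 1350 of the genes described, and no count moved by over 1.5 times. Libraries of the same number deviated together in all 6 pairs of groups (correlation of deviations across genes 0.138 to 0.294), and *Mpo* and *Elane* were higher in replicate 1 of each effector subset. The labels do not say what a number marks, and each comparison has 2 same-numbered pairs.

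Of 1185 values for 64 named genes under these alternatives, 1184 kept their direction and side of the threshold, and the exception was *Ifi203* in a fit of 2 groups only. The counts of gene lists were recomputed under 18 settings, other fold thresholds and level limits not among them, and moved by over 1.5 times in 4 cases. With voom, 1 GIMAP gene and 2 cytotoxic granule genes were lower, without genes lacking an OK flag 1 GIMAP gene was lower, and with a mean FPKM of at least 5, 11 interferon-stimulated genes were lower. With 2 libraries per group the spread is a rough estimate, and lost genes at low FPKM are limited by depth.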

Other observations

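Genes higher in all 3 subsets also lay beside each other. Of 1350, 398 (29.5%) had another of them as the adjacent tested gene, and they made up 12.1% of the genes tested. Here too a neighbor on either side counted, so these shares are not like measures. The longest stretch (chr7:140948962-141072119) held *Ifitm5*, *Ifitm2*, *Ifitm1*, *Ifitm3*, *Ifitm6* and *B4galnt4*. The next (chr15:74955051-75111949) held the Ly6 genes *Ly6e*, *Ly6i*, *Ly6a*, *Ly6c1* and *Ly6c2*, and another (chr8:94152607-94180327) the metallothionein genes *Mt3*, *Mt2* and *Mt1*. Among the lower genes, the 3 C1q genes were adjacent (chr4:136880145-136898844), as were *Rasal1*, *Dtx1* and *Oas2* (chr5:120648822-120749848), which are all lost genes. Neighboring members of a family can share reads, and adjacency was counted without a test.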
